A study of Mus musculus with 6 samples.

Results

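The MYC and MAX network is a group of basic helix-loop-helix leucine zipper transcription factors. Its 10 genes measured here were Myc, Mycn, Max, Mxd1, Mxd3, Mxd4, Mlx, Mlxip, Mnt and Mga. They were chosen as the probe sets whose annotated gene symbol is exactly one of these names, and each gene had 1 probe set, so that 10 of 28853 probe sets and 10 of 19938 named genes belong to the network. They were measured in MS5, a line of stromal cells from mouse bone marrow that feeds haematopoietic and leukaemic cells in co-culture. In each of 3 independent experiments (series 1, 2 and 3 of the labels) 1 culture received PD184352, an inhibitor of MEK (MEKi), at 1 μM over 7 days and 1 received DMSO, the diluent, both in alpha-MEM with serum and with no leukaemic cells stated. This gave 3 arrays per condition and 6 in all. Values are log2 intensities of Affymetrix mouse Gene 1.0 ST arrays after RMA normalization by the authors, and a difference of log2 values within an experiment is called a change below. Probe sets differ in brightness for technical reasons, so that levels were compared between cultures. Brightness was set beside that of other probe sets only to call a gene dim and in the marker check, both of which are therefore rough.

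MYC proteins bind DNA as dimers with MAX, at the E-box sequence CACGTG and its variants, and activate genes for ribosome production, nucleotide synthesis and cell growth. The MXD proteins and MNT also need MAX, compete with MYC for it and recruit SIN3 and histone deacetylases, which repress the same sites. MLX is the partner of MondoA, the product of Mlxip, which responds to glucose phosphates, and MGA joins MAX to a Polycomb complex. Downstream of MEK, the kinases ERK1 and ERK2 are known to phosphorylate and stabilize the MYC protein and to act on Myc transcription. The arrays measured mRNA only, in bulk, so that a smaller share of expressing cells and less RNA per cell cannot be told apart.

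Because network members can bind E-boxes in one another's promoters, these were read for the letters CACGTG, which are the same on both strands. RefSeq promoters of GRCm38.p6, from 250 bases before to 50 bases after the annotated start, were used. They were found for 9 of the 10 genes, all but Myc, whose promoter was therefore not read. The sequence stood in 4 of these 9 promoters (44.4%), those of Max, Mxd4, Mlx and Mnt, against 7.15% of all 32851 promoters of the same length, 7.84% of those of protein-coding genes and 11.3% of those with at least 14 CG pairs, the lowest number in a member. The stretches around the 4 sites are given because they set these members apart by sequence; the E-box is in capitals, and all are written in the direction of the gene.
Max, chr12:76962222-76962311, minus strand: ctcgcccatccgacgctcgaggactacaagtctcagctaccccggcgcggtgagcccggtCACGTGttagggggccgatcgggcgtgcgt
Mxd4, chr5:34187900-34187960, minus strand: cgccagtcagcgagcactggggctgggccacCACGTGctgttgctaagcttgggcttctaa
Mlx, chr11:101087190-101087279, plus strand: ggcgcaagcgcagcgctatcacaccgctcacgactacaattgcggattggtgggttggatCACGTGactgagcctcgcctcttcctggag
Mnt, chr11:74830741-74830830, plus strand: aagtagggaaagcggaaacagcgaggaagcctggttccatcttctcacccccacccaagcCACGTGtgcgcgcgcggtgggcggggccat
The E-box of Max lies across the annotated start, from base −3 to base 3. That of Mlx starts 40 bases before it (position −40), that of Mnt at −123 and that of Mxd4 at −219. No binding was measured, and a match is only a description of the letters. Of the genes known to be activated by MYC, 6 of 24 promoters of nucleolar genes (25.0%) and 11 of 40 promoters of growth and metabolism genes (27.5%) held the same letters, as did 2 of 6 promoters of MLX and MondoA targets (33.3%). The share was 15.0% (3 of 20) for MYC turnover genes, 11.1% both for partners and cofactors (3 of 27) and for the MGA complex (1 of 9), and 0 of 11 promoters of MYC-repressed genes and 0 of 15 of the other zipper factors held them.

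None of the 10 network genes passed the test after 7 days of MEKi, at an adjusted p under 0.05 from limma (a linear model with the experiment as a block), where 0.159% of all probe sets passed. At an unadjusted p under 0.05 there were also 0 of 10, against 9.89% of all probe sets, and 0 of 10 when a 1.5-fold change was asked for as well, against 0.537%. Of the brighter probe sets, those at or above the median brightness, 13.8% passed the unadjusted p from limma, and 9 of the 10 members belong to these. Myc and Mxd4 kept 1 direction in all 3 experiments, 2 of 10 genes against 31.8% of all probe sets. The log2 changes lay between −0.17 and 0.18 with a median of −0.036, beside a median of 0.037 over all probe sets, and the smallest adjusted p was 0.528. All 10 intervals of 95% confidence lay within a 1.5-fold change in either direction, as did those of 96.8% of all probe sets. In no member did the 3 MEKi arrays and the 3 diluent arrays separate without overlap, which 7.86% of all probe sets did.

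**Figure D1:**
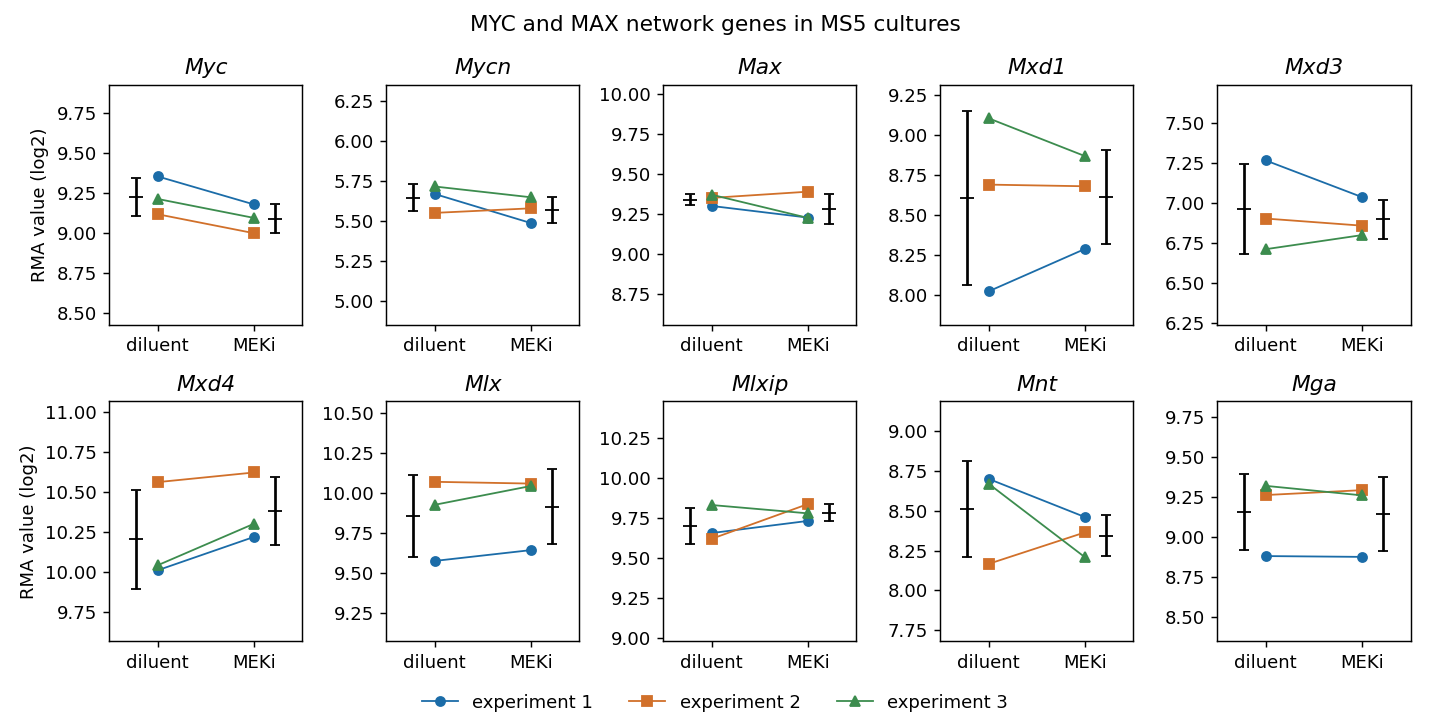
RMA values on the log2 scale (y axis, the same span of 1.5 in each panel) of the 10 network genes in diluent and MEKi cultures (x axis); coloured lines connect both cultures of 1 experiment and black bars are the mean ± SD of 3 cultures. Myc is lower and Mxd4 higher with MEKi in each experiment, while Mxd1 differs most between experiments.

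Myc, the growth-promoting factor after which the network is named, was at 9.35, 9.12 and 9.21 with diluent and at 9.18, 9.00 and 9.09 with MEKi on the log2 scale in experiments 1, 2 and 3. The MEKi culture was the lower one in each experiment, but the groups overlapped, the MEKi culture of experiment 1 lying above the diluent culture of experiment 2. With MEKi, Myc was at 0.91 of its diluent level (95% confidence interval 0.81 to 1.02, n = 3 experiments), or −0.14 on the log2 scale, with a standard error of 0.072 and an adjusted p of 0.593 from limma. Across the array, 7.98% of probe sets were lower in all 3 experiments. Experiment 2 had a general shift, its median change over all probe sets being 0.10 against −0.003 and 0.014 in experiments 1 and 3. With the median of every array set to 0, the changes of Myc were −0.18, −0.21 and −0.12, and its unadjusted p was 0.038 (adjusted p = 0.484 from limma). Over the 10 alternative fits and the main one its log2 change lay between −0.19 and −0.12. Mycn, the relative known mainly from neural and embryonic tissue, was below the median brightness of all probe sets. It had 5.67, 5.55 and 5.72 with diluent and 5.49, 5.58 and 5.65 with MEKi, a log2 change of −0.074 (standard error 0.078), with no common direction.

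Max, the shared dimerization partner, varied least among the diluent cultures, at 9.30, 9.35 and 9.37. With MEKi it was at 9.23, 9.39 and 9.22, which is 0.96 of the diluent level (95% confidence interval 0.85 to 1.09), and its changes had no common direction. Mlx, the other hub of the network, was at 9.58, 10.07 and 9.93 with diluent and at 9.64, 10.06 and 10.04 with MEKi (1.04 times the diluent level, 0.92 to 1.18). Mlxip was at 9.65, 9.62 and 9.83 with diluent and at 9.73, 9.84 and 9.78 with MEKi (1.06 times, 0.92 to 1.21). Both were higher in 2 of 3 experiments, and their changes of 0.058 for Mlx and 0.081 for Mlxip were smaller than their standard errors of 0.074 and 0.083.

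Among the repressive partners of MAX, Mxd4, linked to quiescent and differentiated cells, differed by 0.18 on the log2 scale, with a standard error of 0.078 and an adjusted p of 0.528 from limma. It was at 10.01, 10.56 and 10.04 with diluent and at 10.22, 10.62 and 10.30 with MEKi. Each MEKi culture was above the diluent culture of its experiment (1.13 times, 95% confidence interval 0.99 to 1.28), as were those of 23.8% of all probe sets. With the median of every array set to 0 this held in experiments 1 and 3 only, experiment 2 giving −0.028, and over the alternatives the log2 change lay between 0.13 and 0.23. Mnt, which is expressed in most cells, resting or dividing, was at 8.70, 8.17 and 8.67 with diluent and at 8.46, 8.36 and 8.21 with MEKi. Its changes were −0.24, 0.20 and −0.46, so that the experiments went opposite ways, and its log2 change of −0.17 had a standard error of 0.125. Over the alternatives the value for Mnt lay between −0.35 (without experiment 2) and −0.021 (without experiment 3), and it exceeded that of Mxd4 in size after a further quantile normalization (−0.23 against 0.14), with array medians set to 0 (−0.20 against 0.14), with array weights (−0.24 against 0.20) and without experiment 2 (−0.35 against 0.23). The difference between the directions of the experiments was not tested.

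Mxd1, which is induced when cells leave the cycle, was at 8.02, 8.69 and 9.10 with diluent and at 8.29, 8.68 and 8.87 with MEKi. The conditions had nearly the same mean, 8.60 ± 0.55 (SD, n = 3) for the diluent cultures against 8.61 ± 0.30 (SD, n = 3) for those given MEKi. Mxd3, a family member found in dividing cells, was at 7.27, 6.90 and 6.71 with diluent and at 7.04, 6.86 and 6.80 with MEKi. The cultures of experiment 1 were thus lowest for Mxd1 and highest for Mxd3 in both conditions. Mga was at 8.88, 9.26 and 9.32 with diluent and at 8.88, 9.29 and 9.26 with MEKi, and its changes in the 3 experiments were −0.005, 0.031 and −0.060. Its 95% confidence interval ran from 0.88 to 1.12 times the diluent level. The 4 genes with an E-box in the promoter window, Max (−0.060), Mxd4, Mlx and Mnt, had changes of both signs, as had the 5 whose window held none. Myc had no promoter to read.

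**Figure D2:**
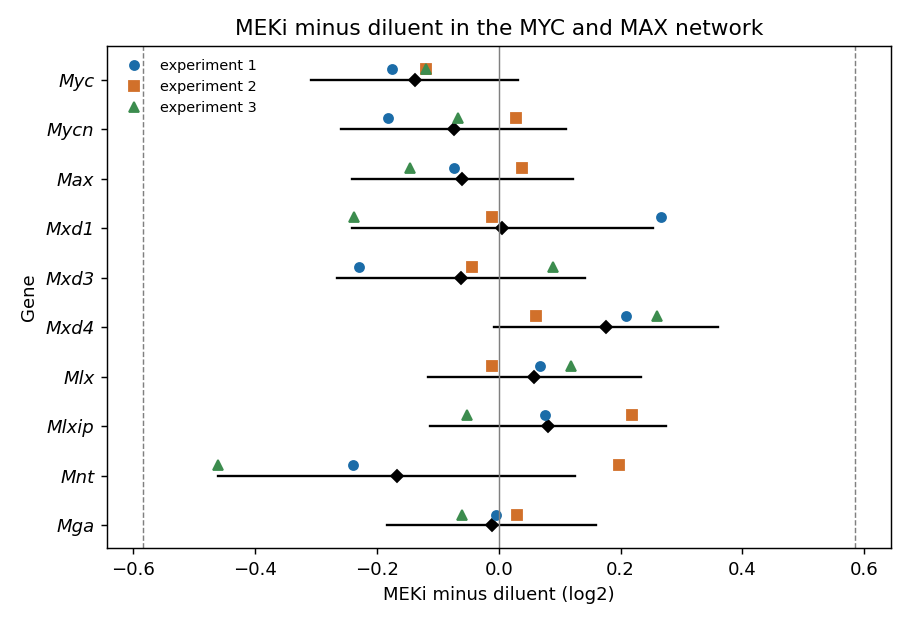
Change with MEKi (x axis, log2, MEKi minus diluent) of the 10 network genes (y axis); coloured points are the 3 experiments, the black diamond and line are the log2 change and its 95% confidence interval from limma, and dashed lines mark 1.5-fold. All 10 intervals include 0 and lie inside the dashed lines.

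The experiments were compared as well. The range of the 3 experiment means (each the mean of a diluent and a MEKi array) was larger than the change with MEKi in all 10 genes and in 83.9% of all probe sets. A range of 3 means of 2 arrays tends to exceed a difference between 2 means of 3 arrays even where neither factor acts, so that these values are a description only. For Mxd1 the range was 0.83, against a change of 0.0062. For Mga it was 0.41 against 0.011, for Mlx 0.46 against 0.058 and for Mxd4 0.48 against 0.18. In the same limma fit, the F test for a difference between the experiments passed for these 4 genes, with adjusted p-values of 0.0238 for Mxd1, 0.0477 for Mga, 0.0447 for Mlx and 0.0426 for Mxd4. Over all probe sets 7.69% passed, and 11.1% of the brighter ones, to which 9 of the 10 members belong. Myc had a range of 0.21 (adjusted p = 0.340 from limma), and Max, at 0.11, had the smallest range of the 10. The diluent cultures and the MEKi cultures placed the experiments in the same order for 5 of the 10 genes, Myc, Mxd1, Mxd3, Mxd4 and Mlx, and for 28.9% of all probe sets. The number of the 4 genes that passed fell to 1 (Mxd1) after a further quantile normalization, 2 (Mxd1 and Mga) with array medians set to 0, 2 (Mxd1 and Mga) without experiment 2, and 0 without experiment 1. Over all probe sets 8.54%, 8.2% and 8.13% passed in the first 3 of these fits, and 0.641% without experiment 1, where the calls were thus fewer over the whole array. What differed between the experiments is not given in the labels and was not tested.

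**Figure D3:**
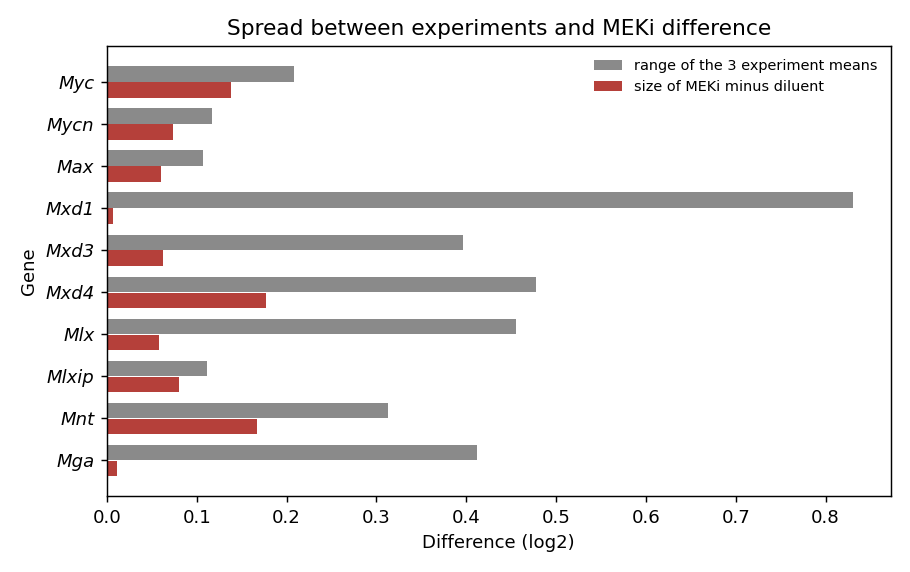
Range of the 3 experiment means (grey bars) and size of the MEKi minus diluent change (red bars) on the log2 scale (x axis, from 0) for the 10 network genes (y axis). The grey bar is the longer one for every gene, with 0.83 against 0.0062 for Mxd1, as it would be for 83.9% of all probe sets.

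Genes that work with the network were read by lists. Of 20 measured partners and cofactors none passed the adjusted or the unadjusted threshold of limma, in either direction, and their median change was 0.011. The largest was that of Mxi1, the remaining member of the MXD family, which stood at −0.39 with a standard error of 0.170 and an adjusted p of 0.521 from limma. Mxi1 was at 8.63, 7.82 and 9.17 with diluent and at 7.76, 7.95 and 8.74 with MEKi, lower in experiments 1 and 3 and higher in experiment 2, as Mnt was. Hdac2 (0.13) and Kat2a (0.11), which encode a histone deacetylase and a histone acetyltransferase, were higher in all 3 experiments without passing, and the helicase gene Ruvbl2 (−0.10) was lower in all 3. Sin3a and Sin3b, scaffolds for the MXD repressor complex, had values of −0.069 and 0.090. Of 18 genes that act on the stability of the MYC protein none passed (median 0.044). At an unadjusted p under 0.05 from limma 1 was lower and 0 higher, against 2.31% and 7.58% of all probe sets. Pim1, a kinase that phosphorylates MYC, had the largest value, −0.70 (standard error 0.181, adjusted p = 0.282 from limma). It was at 9.19, 8.10 and 9.99 with diluent and at 8.31, 8.01 and 8.86 with MEKi, with little difference in experiment 2. Fbxw7, whose product marks MYC for degradation, had a value of 0.076, Set one of 0.17, the deubiquitinase gene Usp28 one of −0.16 and the phosphatase subunit gene Ppp2r5a one of 0.16.

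Of the 9 genes whose products form the Polycomb complex with MGA, none passed (median 0.056). At an unadjusted p under 0.05 from limma 1 was higher, against 7.58% of all probe sets. E2f6 (0.25, adjusted p = 0.446 from limma), Rybp (0.16), L3mbtl2 (0.16) and Ring1 (0.14) were higher in all 3 experiments, as were 23.8% of all probe sets. None of the 9 was lower in all 3, against 7.98% of all probe sets. Of 6 targets of MLX and MondoA none passed, 0 of them at an unadjusted p from limma (median −0.029). Txnip, an inhibitor of glucose uptake and the best known of these targets, was at 11.60, 11.28 and 11.76 with diluent and at 11.49, 11.40 and 11.73 with MEKi, a change of −0.0084 (standard error 0.080). Arrdc4, its relative, had a value of −0.082, Klf10 one of −0.049, Fgf21 one of −0.17 and G6pc one of 0.16. Fgf21 and G6pc were below the median brightness of all probe sets, at 5.16 to 5.48 and 4.55 to 4.92. Of 9 other zipper factors that bind E-boxes none passed (median −0.071). The 1 lower at an unadjusted p, against 2.31% of all probe sets, was Mitf, with −0.38 (adjusted p = 0.418 from limma). Its changes were −0.61, 0.052 and −0.58 in experiments 1, 2 and 3. Tfap4 (−0.21), Srebf2 (−0.16) and Srebf1 (0.18) did not pass either.

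Of 29 nucleolar and ribosome biogenesis genes that MYC is known to activate, none passed and the median was 0.012. At an unadjusted p under 0.05, 2 were higher and 0 lower, Bop1 (0.22) and Rrp12 (0.19), both ribosome assembly factors, against 7.58% and 2.31% of all probe sets. In all 3 experiments 8 of the 29 were higher and 2 lower, against 23.8% and 7.98% of all probe sets. Rrs1, below the median brightness of all probe sets, had −0.23 with opposite directions among the experiments. Npm1, the nucleolar chaperone nucleophosmin, had −0.16. Of 31 MYC-activated genes of growth and metabolism none passed either (median 0.061). There were 4 higher and 1 lower at an unadjusted p under 0.05 from limma, against 7.58% and 2.31% of all probe sets. Among the brighter probe sets, to which 29 of the 31 belong, 13.8% passed that threshold in either direction. Slc1a5, a glutamine transporter, had the largest value, 0.44 (standard error 0.115, adjusted p = 0.294 from limma). It was at 9.59, 9.73 and 9.39 with diluent and at 9.81, 10.05 and 10.16 with MEKi, without overlap between the conditions. The others that were higher at the unadjusted p were Id2 (0.38), the transferrin receptor gene Tfrc (0.36) and Ctps (0.25), which encodes a CTP synthase, and the lower one was Ldha, lactate dehydrogenase A, at −0.25 (adjusted p = 0.361 from limma). Mthfd2, a mitochondrial folate enzyme, had 0.27 with an unadjusted p of 0.0603 and was lower in experiment 2.

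Of 10 genes known to be repressed by MYC, 1 rose, none fell and 9 did not pass (median 0.049). The risen gene was Thbs1, thrombospondin 1, a matrix protein that limits blood vessel growth, at 12.01, 11.60 and 11.10 with diluent and 12.52, 12.28 and 11.82 with MEKi. Its log2 change was 0.64 with a standard error of 0.079 and an adjusted p of 0.0489 from limma, which was between 0.00268 and 1.00 over 10 alternatives, of which 8 lost the call, among them each fit without 1 experiment. Cdkn2b, an inhibitor of cyclin D kinases, had 0.39 (adjusted p = 0.188 from limma), and Cdkn1b, which encodes p27, had −0.25. At an unadjusted p under 0.05 from limma 2 of the 10 were higher and 1, Cdkn1b, lower, against 7.58% and 2.31% of all probe sets. Ndrg1 had −0.49 (−1.25, 0.30 and −0.51 in experiments 1, 2 and 3) and Cebpa 0.27 (−0.17, 0.19 and 0.79), with opposite directions among the experiments. Of 132 distinct listed genes Thbs1 was thus the 1 that passed, where 0.159% of all probe sets did. The lists were chosen with earlier results of these data known, so that this count is a description only.

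**Figure D4:**
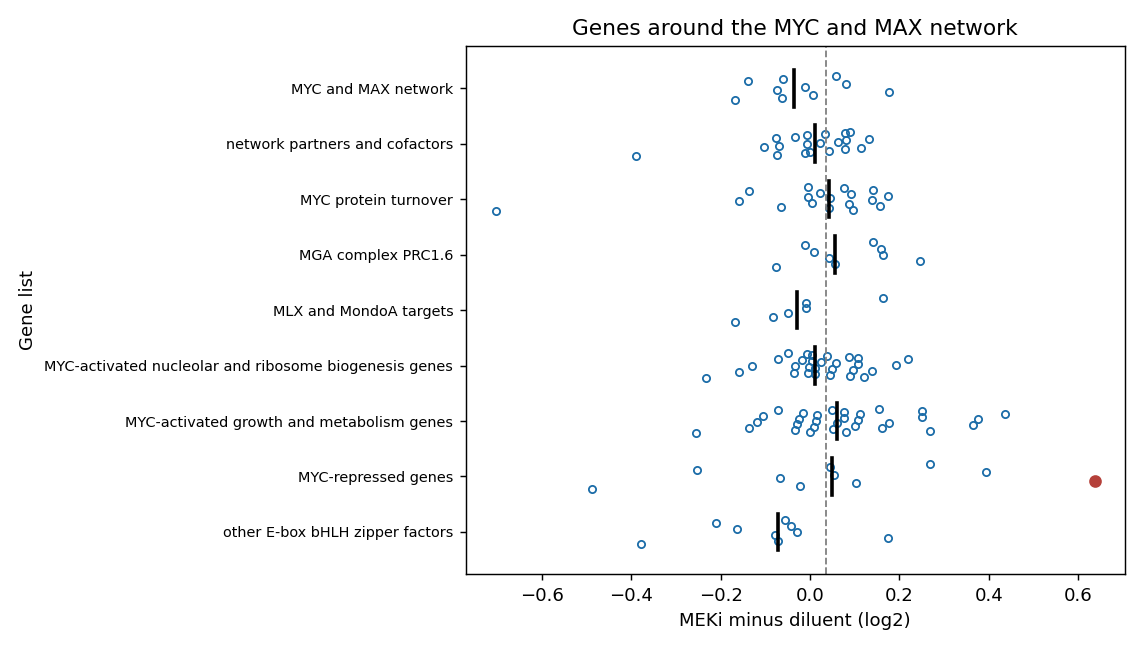
Change with MEKi (x axis, log2, MEKi minus diluent) of the network and for 8 lists of related genes (y axis); each circle is a gene, the filled red one passed an adjusted p under 0.05 from limma, short black lines are list medians and the dashed line is the median of all probe sets, 0.037. Thbs1, at 0.64, is the filled circle.

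The 5 genes whose values over the 6 arrays were most like those of Myc were Diras1, Olfr1195, Cd82, Havcr2 and Sirpa, with Pearson coefficients of 0.99, 0.98, 0.98, 0.98 and 0.98. The arrays share experiments and treatments, and the coefficients describe these 6 arrays only. All 5 were lower with MEKi in each experiment, as Myc was, which their choice by likeness over the same arrays nearly fixes, and none passed. Their log2 changes were −0.14 for Diras1, −0.061 for Olfr1195, −0.26 for Cd82, −0.47 for Havcr2 (adjusted p = 0.127 from limma) and −0.13 for Sirpa. Olfr1195, an olfactory receptor gene, was at 3.54 to 3.72 on all arrays, among dim values, and Diras1 was also below the median brightness of all probe sets.

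The label of the cells was checked with marker genes. Of 12 mesenchymal stromal markers 10 were at or above the median brightness, as were 4 of 9 leukocyte markers, 0 of 6 endothelial and 1 of 6 epithelial markers. The mean of the leukocyte markers was between 6.25 and 6.56 with diluent and between 6.23 and 6.39 with MEKi, and that of the stromal markers between 10.31 and 10.50 and between 10.28 and 10.50. Ptprc, which encodes the leukocyte antigen CD45, was dim, at 4.71 to 5.06, whereas Cd68 was at 8.96 to 11.41 and Lyz2 at 7.37 to 8.85. The stromal markers below the median brightness were Nt5e, at 4.58 to 5.03, and Thy1, at 5.46 to 5.67. None of the markers passed; Vcam1, an adhesion molecule of stroma, had the largest stromal value, −0.57 (adjusted p = 0.0942 from limma). Of the leukocyte markers, Cd53 (−0.75), Cd68 (−0.61) and the dim Csf1r (−0.084) were lower and Lyz2 (0.42) and Cd14 (0.25) higher with MEKi in all 3 experiments without passing. These are 3 and 2 of the 9 markers, against 7.98% and 23.8% of all probe sets. The part of these markers in the values of the network was not tested.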

How the data were processed

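RNA of MS5 cultures was hybridized to mouse Gene 1.0 ST arrays, and the authors normalized the raw data with RMA and did quality controls in Partek; the versions are not given in the sources used here. The deposited log2 intensities of 28853 probe sets were used unchanged. The table of probe genes named 1 gene for 21789 probe sets, several for 1621 (0 with a member) and none for 5443; of several probe sets of a listed gene the one with the highest mean was taken.

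The comparison of MEKi and diluent used limma 3.58.1 in R 4.3.3, with lmFit and eBayes, all probe sets in 1 fit, the experiment as a block and Benjamini-Hochberg adjustment over all probe sets, at a threshold of 0.05. Residual degrees of freedom were 2 and the prior added 5.17. The labels give 1 culture per condition in each series, and across probe sets, which are not independent, the deviations of same-numbered arrays from the mean of their group had correlations of 0.81, 0.59 and 0.62. For arrays of different numbers they lay between −0.61 and 0.21. Deviations within a group cancel out, so these correlations depend on each other. The F test between experiments comes from the same fit and was added after the data were seen. The number of arrays limits the precision. The procedure was tested on simulated data. Alternatives were no block, a random block, quantile normalization, median centring, brighter probe sets only, array weights, a robust prior with an intensity trend, each experiment left out, and the 1.5-fold threshold of the methods with an unadjusted p of at most 0.05, which is looser than the p printed in the methods (given there as a percentage).

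The members and the gene lists were chosen with earlier results of these data known. The text names all members, from each list at most 4 genes, called ones before others and then the larger changes, and the 5 genes most like Myc. Sin3a, Sin3b, Fbxw7, Txnip, Ldha, Ctps, Cdkn1b, Ptprc, Csf1r and Thy1 were named in addition, for their roles, calls, levels or directions, after their values were seen. Matplotlib 3.10.9 (Python 3.11.15) drew the figures.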

Additional observations from a re-analysis of the deposited data

How the results depend on the processing

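None of the 10 network genes passed an adjusted p of 0.05 from limma in any of the 10 alternatives, or at an unadjusted p of at most 0.05 with a 1.5-fold change, and the smallest adjusted p among them was between 0.313 and 1.00 (Mycn was too dim to enter the fit of brighter probe sets). Without the replicate block, 0 of the 10 passed an unadjusted p under 0.05, against 3.14% of all probe sets. At the adjusted p, 0 of all 28853 probe sets passed in that fit. At an unadjusted p under 0.05, 1 of 10 members passed after a further quantile normalization (Myc; 9.67% of all probe sets), after centring on the median (Myc; 9.64%), with an intensity trend and robust prior (Mxd4; 10.6%) and with array weights (Mxd4; 11.6%), which is about the share over the whole array, and 0 to 2 when a replicate was left out (Mxd4 and Mnt without experiment 2, against 10.6% of all probe sets). The sign changed, without a call, for Mxd1 after a further quantile normalization (−0.041), after centring (−0.026), with array weights (−0.0014) and when a replicate was left out (−0.12 to 0.13, negative without replicate 1), for Mga with a replicate left out (−0.032 to 0.013, positive without replicate 3) and for Mxd3 likewise (−0.14 to 0.022, positive without replicate 1); the other 7 members kept theirs. Of the listed genes, 1 passed in the main fit and with the trend or array weights, and 0 without the block, with a random block, after quantile normalization, after centring, among brighter probe sets and with any replicate left out. Of all probe sets 46 passed, against 0 with a random block, 15 after quantile normalization, 0 after centring, 25 among brighter ones, 115 with the trend, and 0 to 37 with a replicate left out. The difference between experiments passed for 1 member after quantile normalization (8.54% of all probe sets), 2 after centring (8.2%) and 0 to 3 with a replicate left out (0.641% to 8.25%). The cause of these differences was not tested. Each member had 1 probe set, so that the mean over probe sets is the same value.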
